A study of Mus musculus with 44 samples.

Results

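The Rab genes of the mouse were followed through the levels of their mRNAs, their ribosome-protected fragments (RPFs), their translational efficiency (TE) and the lengths of their poly(A) tails. A gene counted as a Rab gene when its mouse symbol was Rab followed by a number and at most 1 letter from a to d, so that Rab-interacting proteins stayed out. By this rule 57 of the 17126 transcript accessions in the files were Rab genes. The annotation holds 59 such symbols, and Rab36 and Rab44 were not measured here.

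The study surveyed neuronal translation and tail lengths in mouse tissues and cultured neurons. RNA-seq and RPFs came from the embryonic hippocampus at embryonic day 16, from the hippocampus and the cortex of 1 adult male mouse each, and from cultures of cortical neurons made from pups 0 to 1 days old, each a mix of about 5 animals of both sexes. A first set of cultures was harvested after 10 days in vitro (DIV10), either unstimulated or after 10 or 30 min in KCl. A second set was harvested after 14 days (DIV14) and was left without a stimulus, exposed to BDNF or to a mix of glutamate and glycine (glu/gly) for 30 min, or transduced on day 5 with a lentivirus. The lentivirus expressed EGFP from the synapsin promoter, either alone (GFP) or with pri-miR-1a-1 or pri-miR-155 in the 3′ UTR. Tail lengths came from TAIL-seq for the cultures and the adult cortex and from PAL-seq for both hippocampi. PAL-seq was also made from the visual cortex of 8 mice aged 6 to 7 weeks that had spent 1 week in the dark, of which 4 then received 1 h of light. The cultures were treated with AraC, which removes dividing cells. No genetic change other than the lentivirus is named in the labels, and the RPF libraries of both microRNA cultures carry titles that contradict each other, so they were not used.

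Each tissue and each culture was a single library per assay. Differences between them therefore have no replicate check, and their intervals cover counting error only. The 4 dark and 4 light mice were the only replicated groups. Reads on genes came to 448022 to 2111244 in RNA-seq of the cultures, 1709163 to 7689624 in RNA-seq of the tissues and 1233538 to 4812273 tags in the visual cortex, against only 86841 and 221876 tail tags in the embryonic and the adult hippocampus. Rab genes took 0.268 to 0.395% of the RNA-seq reads and 0.491 to 0.904% of the tail tags. Markers of neurons were present in every library. In RPKM, reads per kb of counted ORF scaled to a common number of reads on genes, the 6 oligodendrocyte markers summed to 2509 and 2675 in the adult hippocampus and cortex, to 43 in the embryonic hippocampus and to 45 to 96 in the cultures, where Mog or Mobp was at 0 in every library. In bulk samples of this kind, fewer cells of a type and less RNA per cell cannot be told apart.

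Rab proteins are small GTPases that act as switches on membranes. In the GTP-bound form they recruit effectors such as motors, tethers and docking proteins to a given organelle, exchange factors load the GTP, and GTPase-activating proteins end the signal. Each compartment has its own Rabs, from the endoplasmic reticulum (ER) and the Golgi to early, recycling and late endosomes, and in neurons the Rab3 proteins sit on synaptic vesicles. The genes have short coding regions. The median open reading frame (ORF) of the 57 was 648 nt against 1344 nt over all genes with a gene model, while their median 3′ UTR was 1329 nt against 917 nt.

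The coding region of 55 of the 57 genes held the 24-nt stretch for the GTP-binding loop, a short motif that closes around the phosphates of the nucleotide. This stretch shows how alike, and where different, the coding sequences of Rab paralogues are, and it also occurs in copies elsewhere in the genome. The lines below give it for Rab11a and Rab11b, which act in recycling endosomes, for a copy of Rab11b, and for the 4 Rab3 genes, with the bases that differ within each family in capitals. The sequences were read from the reference genome (GRCm38, mm10) at the codons of each gene.
Rab11a, chr9:64728395-64728418, minus strand: ggAgaTtcTggtgtTggAaagagT
Rab11b, chr17:33749943-33749966, minus strand: ggGgaCtcAggtgtAggTaagagC
Rab11b-ps2, chr19:7399003-7399026, minus strand: ggGgaCtcAggtgtAggTaagagC
Rab3a, chr8:70755940-70755963, plus strand: ggGaaCagcagcgtGggCaaAacC
Rab3b, chr4:108890392-108890415, plus strand: ggCaaCagcagcgtCggGaaGacC
Rab3c, chr13:110260599-110260622, minus strand: ggCaaTagcagcgtGggCaaAacA
Rab3d, chr9:21915825-21915848, minus strand: ggGaaCagcagcgtGggCaaGacA
Rab11a and Rab11b differ at 6 of these 24 bases. Rab11b and the pseudogene Rab11b-ps2 are identical over the stretch.

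Such copies bear on which Rab genes the RNA-seq and RPF counts can measure, because those reads were counted over the ORF without its first 50 nt. Every window of 28 nt of the counted ORF was therefore searched for elsewhere in the genome. For Rab11b 95.2% of the windows also occurred in another place, for Rab5b 80.4%, for Rab7 69.5%, for Rab8b 46.1%, for Rab2a 42.7%, for Rab9 35.2%, for Rab5a 26.1% and for Rab6a 21.1%. The other 49 genes had at most 3.51%. How reads with several matches were treated in RNA-seq and RPF counting is not given in the sources used here, whereas tail tags were aligned to 1 place only and lie at the 3′ end.

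In the cultures and the adult cortex the RNA-seq counts of the most copied genes were low where their 3′-end tags were not. In the unstimulated DIV14 culture Rab11b had 2 RNA-seq reads and 281 tail tags. Rab11a, with almost no copied window, had 132 reads and 475 tags in the same culture. In the adult cortex Rab11b had 4 reads and 199 tags against 257 reads and 178 tags for Rab11a, so the tags, scaled to a common number of tags on genes (CPM), placed both genes at a like level (332 and 297 CPM) while RNA-seq placed them far apart (3.86 and 250 RPKM). Rab7, of late endosomes and lysosomes, had 13 reads and 257 tags in the DIV14 culture, and Rab5b, of early endosomes, had 7 reads and 109 tags. In the adult hippocampus, with few tags, Rab7 had 498 reads and 27 tags, Rab5b 86 and 30, and Rab11b 47 and 17. Scaled to the reads or tags on genes, these were 68.4 and 122, 11.8 and 135, and 6.46 and 76.6 CPM.

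Over all genes with at least 50 tags in the DIV14 culture the median log2 ratio of the RNA-seq level to the CPM of tags was −0.47. It was −1.31 for the 6 Rab genes with copies and −0.14 for the other 24. The corresponding medians were −0.53, −1.90 and −0.07 in the unstimulated DIV10 culture and −0.82, −1.25 and −0.63 in the adult cortex. The plot of RNA-seq level against tags shows that not every copied gene was low and not every low gene copied. Rab6b, with no window found elsewhere, had a log2 ratio of −2.90 in the DIV14 culture, below Rab5b (−2.18) and Rab7 (−2.47) and level with the 5th percentile over all genes. Rab2a (491 RPKM, 585 CPM of tags) and Rab6a lay among the genes without copies. Rab1b (2.14) and Rab10 (1.19), with few copied windows, lay above the 95th percentile over all genes (1.00) in this culture. The minimum of 50 tags left out the copied genes Rab5a (57 reads, 2 tags) and Rab8b (1 read, 23 tags), of which Rab5a had the more reads than tags. RNA-seq levels, RPFs and TE of Rab11b, Rab5b, Rab7 and Rab8b are therefore given below with this reservation, and their tags where there are any.

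The RNA-seq levels that follow are in RPKM, which allows genes of different length to be compared. Rab genes lay above the typical gene in every library. The median of the 52 Rab genes with a read was 45.4 in the embryonic hippocampus, against 17.9 over all genes with a read, and that of the 47 with a read in the unstimulated DIV14 culture was 91.9 against 23. With the Rab genes at 0 included, the medians over all 57 were 42.9 and 44.5. The highest Rab gene was Rab3a in 9 of the 12 libraries, Rab1a (366) in the embryonic hippocampus, Rab31 (517) in the unstimulated DIV10 culture and Rab10 (493) after 30 min of KCl.

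Among the Rabs of synaptic vesicles and regulated secretion, Rab3a, the main Rab of synaptic vesicles, stood highest. Its level was 318 in the embryonic hippocampus, 1049 in the adult hippocampus, 782 in the adult cortex, 501 in the unstimulated DIV10 culture and 754 in the unstimulated DIV14 culture, and in the 9 cultures it ran from 372 to 754. Rab3c came next in the adult cortex with 237, and Rab3b with 76.7. Rab3d, known mainly from secretory cells outside the brain, ran the other way, with 56.1 in the embryonic hippocampus, 8.33 in the adult hippocampus and 8.63 in the adult cortex. Rab27b, which carries secretory granules and exosomes to the plasma membrane, lay at 1.93 in the embryonic hippocampus and at 27.8 and 35.7 in the adult tissues. Its paralogue Rab27a was at 10.3 or less in every library and had no read in 7 of the 9 cultures.

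Of the ER and Golgi Rabs, Rab1a and Rab1b, which serve transport from the ER to the Golgi, varied little between libraries. Rab1a lay between 255 and 380 and Rab1b between 189 and 325. Rab2a, of the ER-Golgi intermediate compartment, lay between 209 and 491, and Rab2b between 39.5 and 76.3. Rab6a and Rab6b, which act at the Golgi, differed in where they were high. Rab6b reached 692 in the adult hippocampus and 432 in the adult cortex, against 153 to 271 in the cultures and 248 in the embryonic hippocampus, and Rab6a ran from 207 in the embryonic hippocampus to 508 in the adult hippocampus.

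The early endosomal Rab5 genes differed by their copies as much as by their levels. Rab5c lay between 159 and 338, Rab5a between 94.8 and 194, and Rab5b between 16.7 and 52.8, of which Rab5b is the most copied. Rab31, which acts between the trans-Golgi network and early endosomes, had its highest level in the DIV10 cultures, at 407 to 517, against 51.3 to 80.7 in the 3 tissues. Among recycling Rabs, Rab11a lay between 171 and 454, Rab14 between 130 and 316, and Rab15 between 24.7 in the embryonic hippocampus and 207 in the adult hippocampus. Rab4a and Rab4b, of fast recycling, lay between 27.5 and 55.2 and between 29.9 and 88.4.

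Of the Rabs for delivery to the plasma membrane, Rab10 lay between 199 and 493 and Rab8a between 41.4 and 197, while Rab8b reached 38.5 at most. Among late endosomal Rabs, Rab7 lay between 30.4 and 119 in RNA-seq, and its paralogue Rab7b was at 13.6 or less. Rab25, an epithelial relative of Rab11, had no read in any RNA-seq library. These ranges are over libraries of different tissues and cultures, and 1 library per condition gives no spread by which neighbours in the order could be separated.

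**Figure D1:**
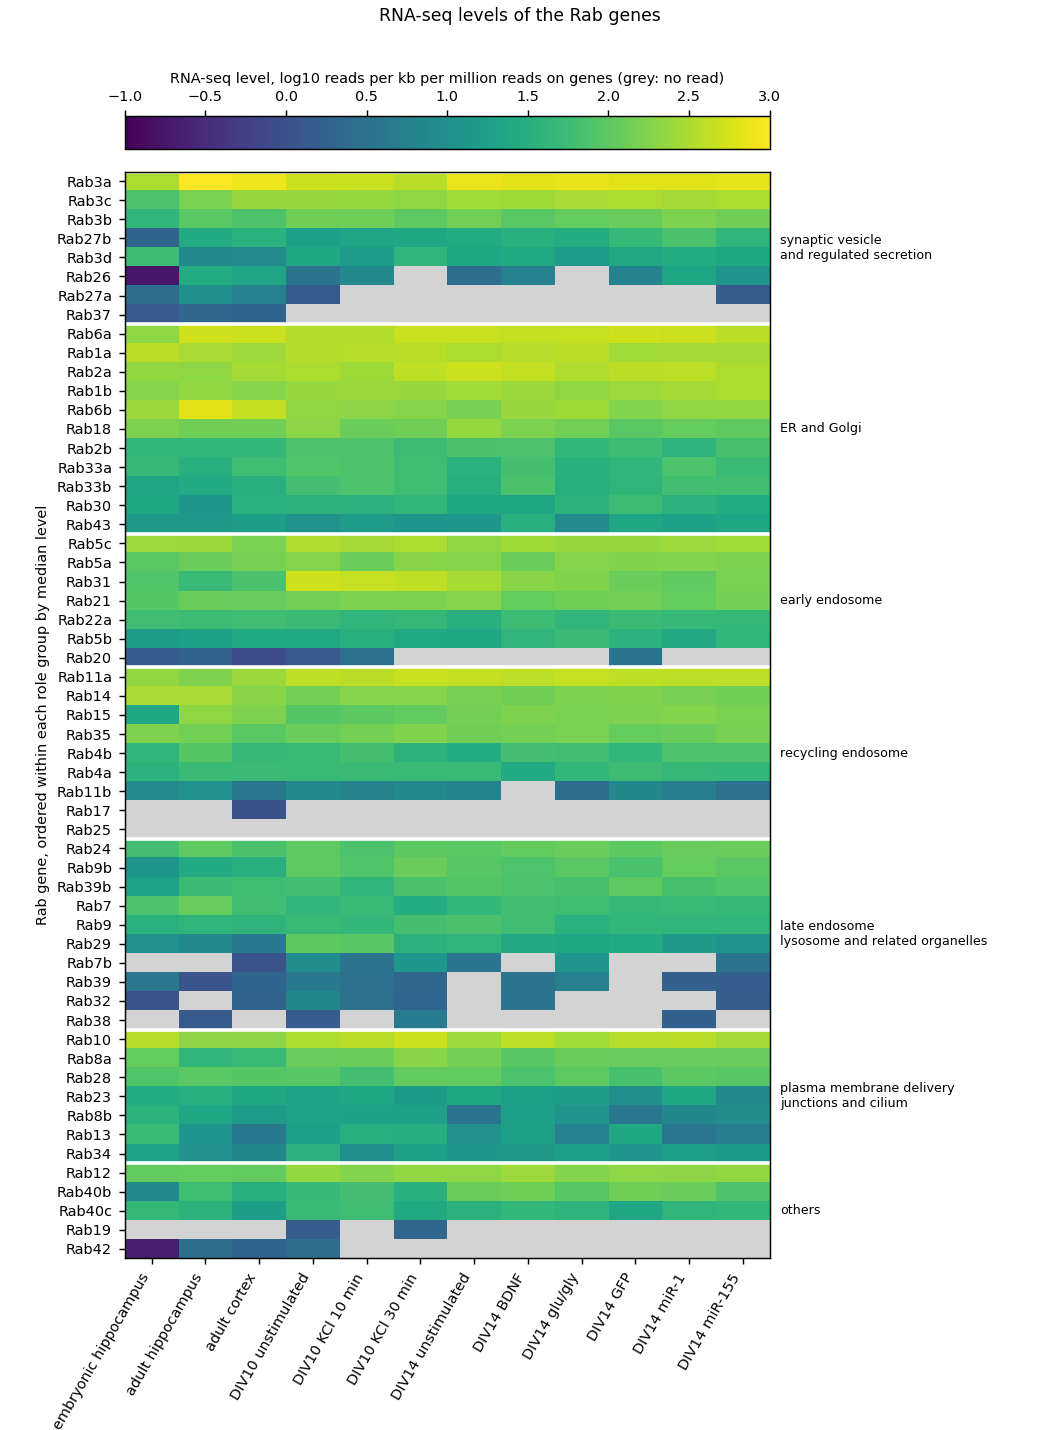
Each cell is the RNA-seq level of a Rab gene (rows, grouped by role) in 1 library (columns, 12 conditions), as log10 RPKM, with grey where no read was counted. Rab3a tops the synaptic vesicle group in every column and is highest in the adult hippocampus (1049), Rab31 is highest in the DIV10 cultures, and Rab25 is grey throughout.

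The first comparison asked how the Rab genes differ between the embryonic and the adult hippocampus, both from poly(A)-selected RNA. The synaptic Rab3a, Rab3b and Rab3c, both Rab6 genes, Rab15, Rab40b, Rab39b and Rab4b stood at least 2-fold higher in the adult, and Rab3d, Rab13 and Rab8a at least 2-fold lower. A gene entered a comparison when it reached 10 RPM, as the authors scaled them, in either library. By this rule 34 of the 57 Rab genes entered, 9 were at least 2-fold higher and 3 at least 2-fold lower, and 25 of the 34 passed in both tissues. Among all 8367 genes that entered, 47.3% passed 2-fold in either direction, 19.7% higher and 27.6% lower. The median log2 difference was 0.05 for the Rab genes and −0.32 for all genes, and TMM scaling would move all log2 differences in RNA-seq by 0.19. Cell markers differed alongside. From the embryonic to the adult library the summed level was 1687 and 5376 RPKM for 7 neuron markers, 1075 and 46.9 for 7 progenitor and immature neuron markers, 340 and 1492 for 6 astrocyte markers and 43.3 and 2509 for 6 oligodendrocyte markers, of which Mog was at 0 in the embryo. Their part in these differences was not tested.

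Rab15, which regulates recycling of endosomes in neurons, had 888 reads in the adult and 112 in the embryonic library, 8.37-fold higher (95% exact counting interval 6.87 to 10.3). Rab40b, a Rab that binds a ubiquitin ligase through its SOCS box, had 334 and 50 reads, 7.06-fold higher (5.23 to 9.70). Rab3a had 4682 and 1498 reads, 3.30-fold higher (3.11 to 3.50). Both assays placed these genes higher in the adult. Rab15 had 1513 RPFs in the adult and 33 in the embryonic library, and Rab3a 26021 and 10865, which was 2.57-fold (2.51 to 2.63).

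Rab6b, the neuronal Golgi Rab, was 2.79-fold higher in RNA-seq (2908 and 1101 reads, interval 2.60 to 2.99) and 4.02-fold higher in RPFs (3.87 to 4.18). Its paralogue Rab6a was 2.45-fold higher in RNA-seq (2.27 to 2.66). Rab39b, of which loss-of-function mutations cause intellectual disability, was 2.63-fold higher (2.06 to 3.40), Rab3b 2.22-fold (1.88 to 2.64), Rab3c 2.12-fold (1.87 to 2.41) and Rab4b 2.03-fold (1.71 to 2.43). The last 3 intervals reach below 2-fold. In RPFs Rab39b was only 1.12-fold higher (1.01 to 1.26) and Rab3b 1.21-fold (1.13 to 1.30). RPFs of Rab6a (2.13-fold), Rab3c (3.03-fold) and Rab4b (24.5-fold) passed 2-fold.

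In the other direction, Rab3d had 263 reads in the embryonic and 37 in the adult library and was 6.73-fold lower in the adult (4.76 to 9.77), and its RPFs were 17.6-fold lower (2074 and 110, interval 14.5 to 21.5). Rab13, which acts at cell junctions and in growing neurites, was 3.93-fold lower (216 and 52 reads, interval 2.89 to 5.43). Rab8a, of transport to the plasma membrane and the cilium, was 2.78-fold lower (508 and 173 reads, interval 2.34 to 3.32).

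Several genes too low to enter the RNA-seq comparison had few reads in the embryo. Rab26, a Rab of secretory and synaptic vesicles, had 1 RNA-seq read in the embryonic and 156 in the adult library, a ratio of 165 (29.1 to 6549), and 0 and 705 RPFs. Rab27b had 9 and 123 reads and 0 and 749 RPFs. Counts of 0 RPFs in these libraries are taken up below. Other genes under the minimum went the other way, such as Rab30 with 100 embryonic and 55 adult reads and Rab34 with 114 and 56. Some Rabs of general transport differed less by RNA-seq. By that assay Rab1a was 1.18-fold lower in the adult (1.09 to 1.27), Rab5c 1.03-fold lower (0.951 to 1.12) and Rab11a 1.31-fold lower (1.19 to 1.44). Rab10 was 1.78-fold lower (1.63 to 1.94). In RPFs Rab11a was 2.38-fold lower (2.29 to 2.48), Rab1a 1.27-fold lower (1.23 to 1.32) and Rab5c 1.33-fold higher (1.27 to 1.39).

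**Figure D2:**
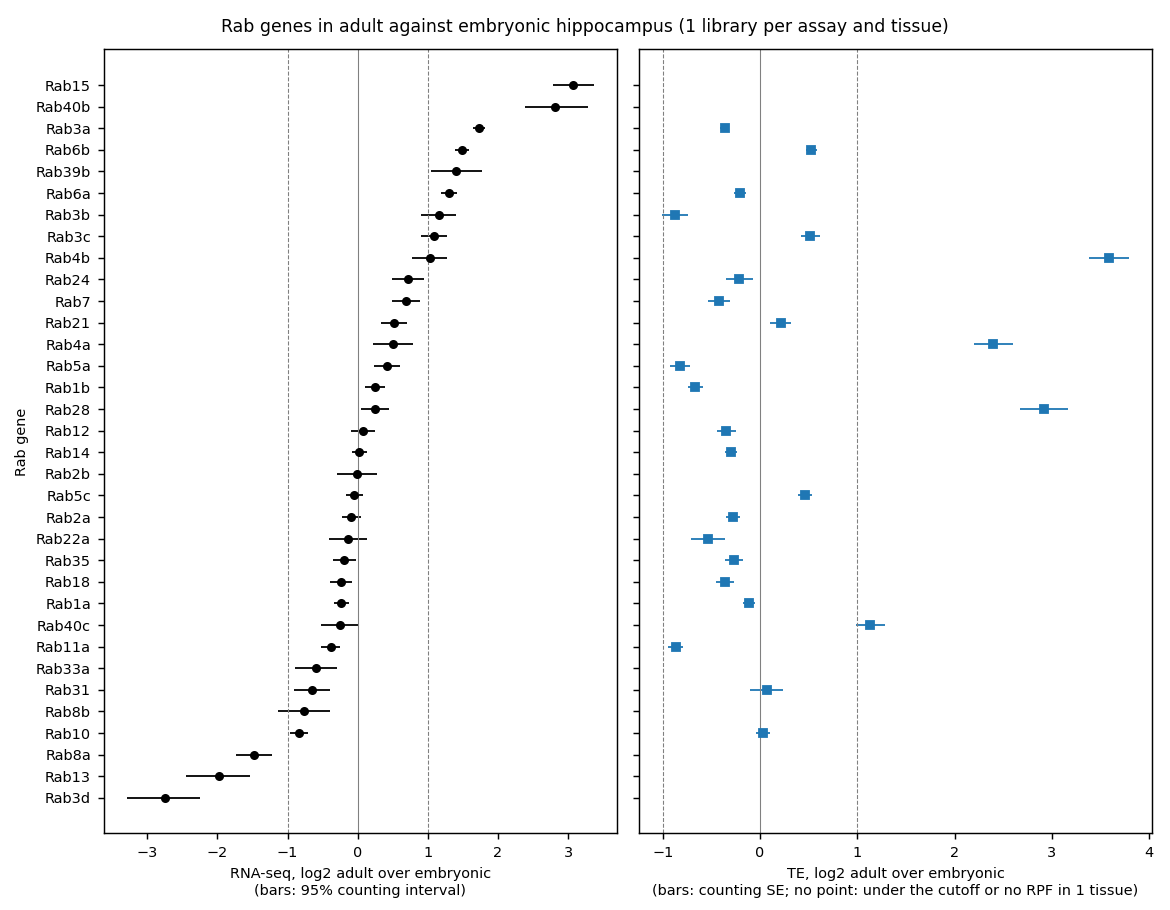
Rab genes that entered the RNA-seq comparison, ordered by their log2 difference, adult over embryonic, with 95% counting intervals (left), and the log2 difference in TE with its counting standard error (right). Dashed lines mark 2-fold. Rab15 and Rab40b lie at the top and Rab3d at the bottom of the left panel, and Rab4b, Rab28 and Rab4a stand apart to the right in TE.

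Tags from the same tissues were fewer. In the adult hippocampus 141 tags were on Rab3a and 142 on Rab6b, against 18 and 18 in the embryonic library, 3.07-fold (1.87 to 5.32) and 3.09-fold higher (1.89 to 5.36). Rab3c had 129 and 9 tags. Of 8 Rab genes with 50 tags in either library 5 were at least 2-fold higher, where 49.5% of all genes that entered passed 2-fold in either direction. Of the 8 only 1, Rab2a, had 50 tags in both libraries, with median tails of 58.5 nt in the adult and 69 nt in the embryo, where 51.5% of all genes differed by at least 10 nt.

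The TE differences between the hippocampi were large for a few genes. Those of Rab4b, Rab28 and Rab4a rested on RPF counts that were low in the embryo. TE, the ratio of RPFs to RNA-seq, was at least 2-fold higher in the adult for 4 of 25 Rab genes and at least 2-fold lower for none, where 22.1% of all 5431 genes passed in either direction. The 4 were Rab4b (log2 difference 3.59 ± 0.20, counting SE), Rab28 (2.92 ± 0.25), Rab4a (2.4 ± 0.20) and Rab40c (1.13 ± 0.15). Rab4b had 87 RPFs in the embryonic and 1985 in the adult library, while its RNA-seq reads were 198 and 381. Rab28, a Rab of the cilium, had 46 and 383 RPFs on 386 and 432 RNA-seq reads. Rab4a had 119 and 830 RPFs, and Rab40c 611 and 1046.

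The hippocampal RPF libraries also left genes without any RPF that RNA-seq detected. Of genes with at least 50 RNA-seq reads, 206 of 10333 had no RPF in the embryonic and 97 of 10152 in the adult hippocampus, against 1 of 6191 in the adult cortex and at most 1 in any culture. Rab13 had 992 RPFs in the embryonic library and 0 in the adult, where 52 RNA-seq reads were counted, and Rab40b had 1 RPF in the embryonic library on 50 RNA-seq reads. The part of this in the TE and RPF values of the Rab genes was not tested. RPF levels passed 2-fold for 22 of 44 Rab genes (16 higher, 6 lower), where the share over all genes was 59.4%.

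The partners of the Rabs were followed through 88 genes for prenylation, exchange, GTPase activation and effectors. In adult against embryonic hippocampus 71 entered, of which 16 were at least 2-fold higher and 6 lower, and 11 of the 16 were effectors, which were 37 of the 71. Over all genes 47.3% passed in either direction. Rph3a, an effector of Rab3a, was 13.1-fold higher (3957 and 319 reads), Syn1, the vesicle protein synapsin, 6.32-fold, Doc2b, a calcium sensor of exocytosis, 9.75-fold and Lrrk2, the kinase that phosphorylates Rabs, 6.29-fold. Sytl2, an effector of Rab27, had 215 and 5 reads. Rin1, an exchange factor for Rab5, had 584 and 17. Mical1, an effector of Rab1 and Rab8 family members that oxidises actin, was 9.31-fold lower in the adult, and Tbc1d4, a GTPase-activating protein for Rab10 and others, 9.19-fold lower.

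TE of Rab3a, Rab3b, Rab14 and Rab1a was above that of the median gene in every sample that gave a value, and TE of Rab15 and Rab31 below it. It was computed, as the authors' cutoff has it, for genes of at least 10 RPM in RNA-seq, which left 18 to 31 Rab genes per sample, and log2 TE was set against the median of all genes of the same sample. These levels rest on the authors' RPM and are read within a sample only, whereas the differences in TE between libraries rest on CPM of reads on genes. Rab genes above that median were 23 of 31 in the embryonic hippocampus, 21 of 28 in the adult hippocampus, 17 of 19 in the adult cortex and 15 of 25 in the unstimulated DIV14 culture. The member and all-gene medians of log2 TE were 1.03 and 0.67, 1.31 and 0.88, 2.14 and 1.31, and 1.69 and 1.14 in the same order.

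The synaptic Rab3a had one of the highest values. Rab3a had a log2 TE of 2.05 in the embryonic hippocampus, 1.96 in the adult hippocampus, 3.02 in the adult cortex and 2.11 to 3.35 in the 7 cultures, and its percentile among all genes of a sample never fell under 89.3. Rab14, of the route between the Golgi and endosomes, lay at 1.39, 1.37 and 2.61 in the tissues and at 2.17 to 3.46 in the cultures. Rab1a, with log2 TE of 1.16 to 2.85, was above the median of its sample in all 10.

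Rab6b had the highest log2 TE of the Rab genes in the unstimulated DIV14 culture, 4.22 ± 0.22 (counting SE), at the 99.3rd percentile, on 45 RNA-seq reads and 2282 RPFs. It lay at 0.78 in the embryonic hippocampus, 1.58 in the adult hippocampus, 2.87 in the adult cortex, 2.81 in the unstimulated DIV10 culture and 4.10 in the GFP culture. Its tags placed its mRNA elsewhere than RNA-seq did. With 1144 CPM it was the most abundant Rab by tags in the DIV14 culture, while its RNA-seq level of 153 was below that of Rab3a (754) and Rab11a (432), among others. The ORF of Rab6b had no more than 3.51% of its windows elsewhere in the genome.

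At the other end stood Rab28, Rab15 and Rab31. Rab28 lay at the 0.645th percentile in the embryonic hippocampus, the 10.4th in the adult hippocampus, the 6th in the adult cortex and between the 1.07th and the 7.76th in the 4 cultures where it passed the cutoff. Rab15 lay at log2 TE of 0.26 in the adult hippocampus and 0.54 in the adult cortex and between −2.25 and 0.31 in 6 cultures. Rab31 ran from the 12.3th to the 33.5th percentile. The pair Rab2a and Rab1a, of the same route from ER to Golgi, differed in each of the 7 cultures, with Rab2a at log2 TE of 0.28 to 0.86 and Rab1a at 1.70 to 2.85. Of the ORF windows of Rab2a 42.7% also occurred elsewhere, and the effect of these copies on its RPFs and TE was not tested.

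The adult cortex and the unstimulated DIV14 culture were set side by side to show how cultured cortical neurons differ from the tissue in their Rab genes. Rab6b was 2.82-fold higher in the cortex by RNA-seq (426 and 45 reads, interval 2.07 to 3.92), and Rab31, Rab40b, Rab8a and Rab9b were 4.24-, 3.82-, 2.82- and 2.82-fold lower. These were the 5 of 25 Rab genes past 2-fold, where 37.5% of all genes passed. The difference of Rab6b was smaller by the other assays, at 1.15-fold in RPFs (1.09 to 1.21) and 1.19-fold in tags (1.09 to 1.30), and its TE was lower in the cortex (log2 difference −1.30 ± 0.23). It was the 1 Rab gene of 19 past 2-fold in TE, against 19% of all genes.

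Rab31 was the gene on which all 3 assays passed 2-fold. It was lower in the cortex 4.24-fold by RNA-seq (65 and 82 reads, interval 3.02 to 5.96), 2.39-fold by RPFs (211 and 291, interval 1.99 to 2.86) and 2.05-fold by tags (69 and 246, interval 1.57 to 2.72). By tags it was the only 1 of 30 Rab genes past 2-fold, where 19% of all genes passed. By RPFs 5 of 41 passed, against 19.6% of all genes. Rab26 had 194 RPFs in the cortex and 6 in the culture, 18.7-fold higher (8.44 to 51.6), and Rab27b 135 and 25, 3.12-fold higher (2.03 to 5.0), whereas Rab3d (2.86-fold) and Rab40c (2.07-fold) were lower. TMM scaling would move the RNA-seq differences by 0.33 on the log2 scale.

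Tails were shorter in the cortex for most genes, Rab genes among them. Of 23 Rab genes with 50 tags in both libraries 16 were at least 10 nt shorter in the cortex and none was at least 10 nt longer, where 63% of all genes passed in either direction. The median difference was −11.9 nt for the Rab genes and −12.4 nt for all genes. The mean tail of Rab6b was 135 nt in the culture and 113 nt in the cortex, that of Rab3c 123 and 101 nt, and that of Rab1b, with the largest difference, 109 and 83.8 nt.

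Of the partners, 19 of 62 were at least 2-fold higher in the cortex by RNA-seq and 3 lower, where 37.5% of all genes passed in either direction. Syn1 was 11.9-fold higher (999 and 25 reads), Lrrk2 11.6-fold (466 and 12), Rph3a 8.66-fold (611 and 21) and Madd, the exchange factor for Rab3, 3.61-fold (897 and 74). Rab3a itself was 1.04-fold higher by RNA-seq (0.896 to 1.20) and 1.64-fold by tags (1.48 to 1.81).

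Between the adult cortex and the adult hippocampus the Rab genes differed little in RNA-seq, where 2 of 28 passed 2-fold against 17.5% of all genes. Rab40c (2.17-fold, 1.42 to 3.46) and Rab7 (2.02-fold, 1.53 to 2.69) were lower in the cortex. Rab7 went the other way in RPFs, 1.48-fold higher in the cortex (1.38 to 1.60), and is a gene with copies. By RPFs 7 of 42 passed 2-fold, against 22.4% of all genes. Rab31 was 2.01-fold higher in the cortex, and Rab29, Rab11b, Rab8b, Rab40b, Rab40c and Rab5b were lower. Of these Rab11b, Rab8b and Rab5b are copied. Rab29 had 15 RPFs in the cortex and 300 in the adult hippocampus, and 0 only in the embryonic hippocampus, which is not compared here. TE passed for 0 of 19, against 12.9%, on reads scaled to genes, and for 8 with the deposited log2 TE, whose median over all genes was 0.88 in the hippocampus and 1.31 in the cortex. RNA selection differed between these tissues and cannot be told apart from them.

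The unstimulated cultures at DIV14 and DIV10 show what differed with age in culture, although the 2 ages also came from separate experiments, which cannot be told apart from age. Rab29, a Rab of lysosomes and the partner of LRRK2, stood lower at DIV14 in all 3 assays, and Rab40b higher. Rab29 had 12 RNA-seq reads at DIV14 and 67 at DIV10, 2.39-fold lower (1.28 to 4.84), 35 and 209 RPFs, 2.73-fold lower (1.90 to 4.03), and 48 and 65 tags, 2.34-fold lower (1.58 to 3.46). Rab40b had 50 and 45 reads, 2.60-fold higher (1.70 to 3.98), and 110 and 21 tags, 3.04-fold higher (1.89 to 5.10), with RPFs 1.95-fold higher. In RNA-seq 3 of 27 Rab genes passed 2-fold, the third being Rab33a at 2.35-fold lower, where 7.1% of all genes passed. By tags the 2 of 31 above passed, against 7.8%, and by RPFs Rab29 and Rab15 (2.23-fold higher) of 38, against 9.58%.

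Tails of 6 of 22 Rab genes were at least 10 nt longer at DIV14, where 34% of all genes passed in either direction. Rab28 had 94.7 nt at DIV10 and 120 nt at DIV14, Rab9b 103 and 126 nt, and Rab10 89.5 and 107 nt. The others were Rab5b, Rab3c and Rab12. TE passed 2-fold for 1 of 23 Rab genes, Rab6b, with a log2 difference of 1.34 ± 0.25, against 1.33% of all genes. Of the 48 partners in RNA-seq only Syn1 passed, 2.70-fold lower at DIV14 on 25 and 158 reads.

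The stimuli were compared with the unstimulated culture of the same age, which BDNF, glu/gly and the GFP culture share, as both KCl times share theirs. The limit was 1.5-fold. Few Rab genes passed it in more than 1 assay. After BDNF 7 of 27 Rab genes passed in RNA-seq, where 12.7% of all genes did. Rab33b (2.12-fold, 0.986 to 4.85), Rab6b (1.56-fold, 1.05 to 2.33) and Rab10 (1.55-fold, 1.14 to 2.12) were higher, and Rab21, Rab8a, Rab5a and Rab31 were 1.66-, 1.58-, 1.54- and 1.52-fold lower. Their counts were low, from 11 to 105 reads.

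Of these 7 genes only Rab31 passed in RPFs, with 143 after BDNF and 291 without, 1.74-fold lower (1.42 to 2.13), and it was the 1 of 37 Rab genes to do so, against 6.66% of all genes. In tags none of 31 passed, against 5.22%, and Rab31 lay 1.44-fold lower (1.18 to 1.76). TE passed for 7 of 23, against 7.82%, from a log2 difference of 1.00 ± 0.50 for Rab28 to one of −0.68 ± 0.26 for Rab12. It passed for 2 with a minimum of 30 RPM and for 4 with the deposited log2 TE. Tails of 3 of 30 were at least 10 nt shorter (Rab1b, Rab23 and Rab28), against 15.3% in either direction.

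After glu/gly 3 of 25 Rab genes passed in RNA-seq, against 17.3% of all genes. Rab6b was 1.77-fold higher (94 and 45 reads, interval 1.23 to 2.58), and Rab31 1.70-fold (57 and 82 reads, interval 1.20 to 2.43) and Rab18 1.67-fold lower. By RPFs Rab31 (1.66-fold lower, 1.33 to 2.07) and Rab22a (1.55-fold lower) passed, 2 of 37 against 7.08%, and by tags Rab23, 1 of 30 against 4.57%. TE of Rab6b was lower by 0.76 ± 0.27 on the log2 scale, the 1 of 24 past the limit, against 12.5%. Tails of 8 of 27 Rab genes were at least 10 nt shorter, against 23% in either direction, with Rab39b at 102 and 120 nt and Rab21 at 96.9 and 113 nt.

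In KCl 4 of 36 Rab genes passed in RPFs at each time, no larger a share than over all genes. After 10 min Rab22a, of early endosomes, had 56 RPFs against 228 without KCl, 2.37-fold lower (1.76 to 3.23), Rab29 56 against 209, 2.17-fold lower (1.61 to 2.97), Rab4a 141 against 372, 1.54-fold lower (1.26 to 1.88), and Rab39b was 1.51-fold lower. They were the 4 of 36, where 13.7% of all genes passed. After 30 min Rab29 was 2.80-fold (1.83 to 4.47), Rab4a 1.90-fold (1.45 to 2.52) and Rab22a 1.56-fold lower (1.14 to 2.18), and Rab2b 1.92-fold higher (1.59 to 2.30), 4 of 36 against 15.9%. The 2 times share their control, so their values are not independent.

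Rab15 stood out in the same libraries below the RPF minimum. It had 146 RPFs without KCl, 29 after 10 min and 16 after 30 min, or 15.4, 5.26 and 5.25 CPM, while its RNA-seq reads were 61, 31 and 51. TE at 10 min was lower by 1.74 ± 0.43 on the log2 scale, and Rab29 by 0.97 ± 0.39, 2 of 22 against 21.8% of all genes. In tags none of 24 passed at 10 min, against 6.2%. In RNA-seq Rab18 and Rab5a were 1.68- and 1.52-fold lower after 10 min, 2 of 27 against 7.58%, and after 30 min Rab8a (1.69-fold) and Rab10 (1.54-fold) were higher and Rab29 2.66-fold lower (1.54 to 4.83), 3 of 25 against 21.5%.

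Rab29 was also lower in tags after 30 min of KCl, with 32 and 65 tags, 2.61-fold (1.68 to 4.12), though not after 10 min (56 and 65 tags, 1.10-fold lower, 0.759 to 1.61). Rab40b, Rab39b and Rab3c had more tags after 30 min (1.97-, 1.58- and 1.52-fold), 4 of 30 against 10.7% in all. TE after 30 min was higher for Rab3a (log2 difference 0.60 ± 0.14) and lower for Rab10 (−0.69 ± 0.15) and Rab6a (−0.64 ± 0.15), 3 of 18 against 27%. Tails of Rab3a were 10.1 nt longer and those of Rab21 12.9 nt shorter after 10 min, 2 of 20 against 15.4%, and those of Rab9b 14.9 nt longer after 30 min, 1 of 22 against 16%. Among the partners RPFs were lower for 9 of 61 after 10 min and 10 of 60 after 30 min, and higher for 1 and 0, against 13.7% and 15.9% of all genes in either direction.

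The GFP culture received no stimulus, so its difference from the unstimulated culture of the same age is one between cultures of 1 age, the virus included. The study prepared 6 neuronal samples in 2 batches of 3, which the sources used here do not match to these cultures, so preparation cannot be told apart from virus or stimulus. In RNA-seq 3 of 25 Rab genes passed 1.5-fold, Rab18, Rab31 and Rab28, all lower (2.43-, 2.41- and 1.58-fold), where 17% of all genes passed. By RPFs 3 of 37 passed, Rab31 (1.94-fold lower, 1.54 to 2.46), Rab4b and Rab9, against 11.5%, and by tags 5 of 30, against 14.9%, with Rab3b and Rab3c higher (1.64- and 1.57-fold) and Rab31, Rab9 and Rab15 lower (2.24-, 1.68- and 1.68-fold). TE passed for Rab18 (log2 difference 1.09 ± 0.35) and Rab3b (0.67 ± 0.34), 2 of 23 against 12.7%. Tails of 7 of 16 were at least 10 nt shorter, against 41.1% in either direction.

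Rab31 was lower in each of the 3 DIV14 cultures set against the unstimulated one, which share that control. Its RNA-seq level was 517, 438 and 407 in the DIV10 cultures without KCl and after 10 and 30 min, 300 in the unstimulated DIV14 culture, 198 after BDNF, 176 after glu/gly, and 124, 106 and 159 in the GFP, miR-1 and miR-155 cultures. Its tags were 354, 360 and 248 in the DIV10 cultures, 236, 164 and 173 in the first 3 at DIV14, and 105, 91.8 and 91.7 CPM in the transduced ones. Markers of astrocytes, of progenitors and immature neurons and of microglia were also lower in the transduced cultures than at DIV10. In the miR-155 culture Rab31 was 1.28-fold higher than in the GFP culture by RNA-seq (0.867 to 1.95). By tags it was 1.15-fold lower there (0.732 to 1.80), and the counting intervals of both assays include 1. The summed level of the 6 astrocyte markers was 1179, 1126 and 1041 in the DIV10 cultures, 1084, 788 and 835 in the first 3 at DIV14, and 759, 611 and 524 in the transduced ones. In the same order, 7 progenitor and immature neuron markers summed to 436, 366 and 358, to 224, 169 and 183, and to 204, 143 and 148. The 6 microglia markers summed to 28.2, 18.4 and 22.0, to 24.0, 21.0 and 17.9, and to 6.44, 1.07 and 1.80. The sum of 7 neuron markers ran the other way, from 2423 in the unstimulated DIV10 culture to 3491 in the GFP culture. In the embryonic hippocampus, the adult hippocampus and the adult cortex the astrocyte sum was 340, 1492 and 1822. Rab31 lay there at 80.7, 51.3 and 70.7. The parts of cell types and of the preparation of the cultures in the values of Rab31 were not tested.

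The microRNA cultures were compared with the GFP culture. miR-155 is a microRNA of activated immune cells, and microRNAs lower mRNAs that pair with their seed in the 3′ UTR. The mature sequence, from chr16:84714143-84714165 on the plus strand, is shown with its seed, bases 2 to 8, in capitals, followed by the sites in Rab40b, the Rab gene that passed 1.5-fold, and in Rab8b, with the bases that match in capitals.
mmu-miR-155-5p: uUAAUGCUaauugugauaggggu
Rab40b, chr11:121356509-121356537, minus strand: tcagataatctAGCATTActgatactaca
Rab8b, chr9:66847310-66847339, minus strand: aaagacagcagAGCATTAAacagaggttga
The Rab40b site matches bases 2 to 8, and the Rab8b site has in addition an A opposite base 1, which makes it an 8mer.

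Such matches to the seed (AGCATTA or GCATTAA on the coding strand) were found in the 3′ UTRs of 14 of 57 Rab genes (24.6%) and of 2000 of 16850 genes (11.9%), and 8mers in 3.51% and 2.85%. The 3′ UTRs of Rab genes are the longer ones. In the miR-155 culture Rab40b had 127 RNA-seq reads against 47 in the GFP culture, 1.74-fold lower (1.22 to 2.46), and 38 against 45 tags, 1.46-fold lower (0.926 to 2.31). It was the 1 of 24 Rab genes past 1.5-fold, where 11.2% of all genes passed, and by tags none of 18 passed, against 8.42%. The 8 Rab genes with a site had a median log2 difference of 0.04, from −0.80 to 0.42, and the 16 without 0.06. Rab6a, with 3 sites, was 1.32-fold lower by RNA-seq (1.08 to 1.60) and 1.11-fold lower by tags (0.917 to 1.34). A match describes the sequence, not a measured site.

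With miR-1, a microRNA of muscle, 2 of 26 Rab genes passed 1.5-fold in RNA-seq, against 14.8% of all genes. Both were higher, Rab33a at 1.71-fold (0.911 to 3.44) and Rab9b at 1.57-fold (0.914 to 2.82), and the counting intervals of both reach below 1. By tags Rab15 alone of 20 passed (59 and 29 tags, 1.78-fold higher, 1.12 to 2.87), against 11.7%. Tails passed 10 nt for 1 of 16 with miR-1 (Rab7, 99.2 and 110 nt, against 20%) and for 1 of 16 with miR-155 (Rab10, 99.8 and 86.7 nt, against 15.3%).

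Tail lengths differed between some paralogues in the same direction in every TAIL-seq library. Rab6b had long tails throughout TAIL-seq, with a mean of 113 nt in the adult cortex and 122 to 135 nt in the 9 cultures, between the 89.4th and the 96.5th percentile of all genes. Rab6a lay between 94.2 and 107 nt in the cultures and at 96.9 nt in the cortex, so every library placed Rab6b above Rab6a. Rab11b, at 108 to 120 nt in the cultures and 105 nt in the cortex, was likewise above Rab11a, at 88.6 to 100 nt and 84.1 nt, in each of the 10 libraries. In TAIL-seq Rab5b had the longest tails of the Rab genes where it had 50 tags, at 136 to 152 nt in 5 cultures. Rab18 and Rab10 lay at the short end, Rab18 at 89.2 to 100 nt and Rab10 at 86.7 to 110 nt in the cultures. The hippocampal files give medians, so their lengths in nt were not set beside these.

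The visual cortex gave the replicated test. The question was whether 1 h of light after a week of darkness changes Rab mRNAs or their tails. No Rab gene passed the test by either measure. Of 43 Rab genes tested for expression with edgeR's quasi-likelihood test none passed an adjusted p of 0.05 (Benjamini-Hochberg over 9554 genes), where 1.34% of all genes passed. By edgeR 2 of the 43 had an unadjusted p under 0.05, as had 903 of the 9554. DESeq2 also gave 0 and 2, but its 2 were Rab1a and Rab6a.

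Rab3a, the most abundant Rab, had 1204, 1379, 1439 and 1341 CPM in the 4 dark mice and 1370, 1264, 1326 and 1439 in the 4 light mice. The groups overlapped, and the log2 difference of light over dark was 0.01 ± 0.08 (SE, adjusted p = 0.9905 by edgeR, 95% interval −0.16 to 0.18). Rab6b lay at 741 ± 64.9 in the dark and 776 ± 78.0 in the light (SD, n = 4 each). Rab11b, which RNA-seq hardly counted, lay at 432 ± 26.4 and 451 ± 11.5, above Rab11a at 264 ± 9.01 and 260 ± 15.3.

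The Rab genes with an unadjusted p under 0.05 by edgeR were Rab6a and Rab30. Rab6a had 115, 170, 158 and 148 CPM in the dark and 188, 173, 179 and 172 in the light. The groups did not overlap, and the log2 difference was 0.25 ± 0.11 (edgeR adjusted p = 0.4816, and p = 0.0286 in a two-sided exact permutation test of the CPM values, the smallest that 4 against 4 mice can give). Rab9b had the same permutation p and no overlap, with an unadjusted edgeR p of 0.1993. The share of all tested genes with that permutation p was not counted, so neither gene can be set against it. Rab30, a Golgi Rab, had the largest log2 difference of the 43, at 0.79 ± 0.36 (edgeR adjusted p = 0.4816, exact permutation p = 0.1429), and its groups overlapped. The other differences ran from −0.43 for Rab3d upward, 19 of the 43 were above 0, and the median was −0.02 against −0.0047 over all genes.

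**Figure D3:**
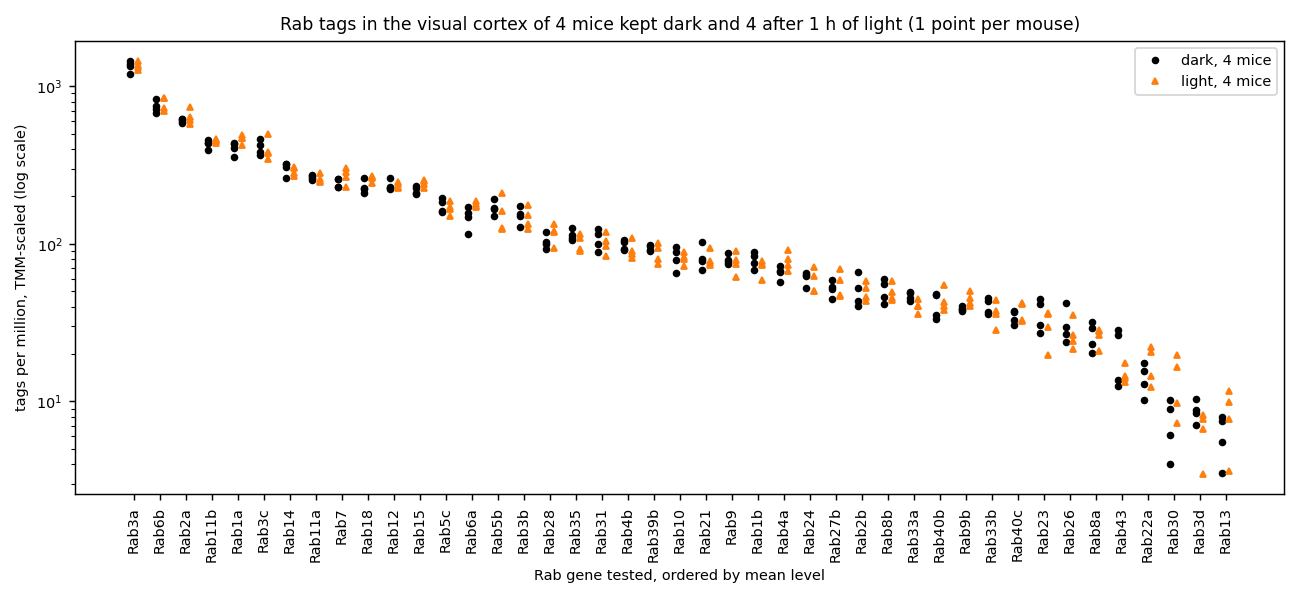
Tags as CPM, scaled by TMM, on a log axis, for the 43 Rab genes tested in the visual cortex, ordered by mean level, with 1 point per mouse for 4 mice kept dark and 4 after 1 h of light. Rab3a is the most abundant, at 1204 to 1439 over all mice. The points of both groups overlap for all genes but Rab6a and Rab9b, with edgeR adjusted p = 0.4816 and 0.7537. The share of all tested genes whose groups did not overlap was not counted, so these Rab genes cannot be set against it.

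Tails could be tested for 30 Rab genes with at least 50 tags in each mouse. None passed an adjusted p of 0.05 by limma, where 0.231% of 4321 genes passed, none had an unadjusted p under 0.05, and the lowest adjusted p was 0.9986. The limma fit used 1 variance shared by all genes, so each of the 30 had an SE of 6.68 nt, whatever its own spread between mice. The difference of light minus dark ran from −3.03 to 11.9 nt, with 28 of 30 above 0. The median was 3.09 nt for the Rab genes and 3.75 nt over all genes, so the whole set of genes lay to that side. The largest was that of Rab6a, whose tails were 102, 104, 82.1 and 88.5 nt in the dark and 101, 109, 120 and 93.5 nt in the light, and the groups overlapped.

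Mice differed in their overall tail length, so each gene was also set against the median gene of the same mouse. Rab6b lay 13.6 ± 1.81 nt above it (SD over 8 mice) and Rab3a 10.0 ± 1.75 nt above it, in 8 of 8 mice each. Rab11b lay 5.47 ± 1.90 nt above it in all 8 mice and Rab11a 3.24 ± 2.22 nt below it in all 8, so that the mice placed this pair as the cultures and the adult cortex had. Rab18 lay 5.27 ± 1.60 nt below it in all 8. Rab5b, with the longest Rab tails in 5 cultures, lay only 7.11 ± 6.60 nt above the median gene, in 6 of 8 mice. Rab6a lay 12.8 ± 5.63 nt above it, close to Rab6b, and Rab10 12.3 ± 3.32 nt above it, whereas in the TAIL-seq libraries both lay under the median of all genes or near it. Assay, tissue and age cannot be told apart in that difference.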

How the data were processed

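RNA-seq, RPF, TAIL-seq and PAL-seq values were taken from the tables deposited by the authors, 1 row per RefSeq transcript. RNA-seq and RPF tables hold read counts on the ORF of a representative transcript without its first 50 nt, and RPM values by the authors, whose total exceeds the reads on listed genes. The tail tables hold tag counts and tail lengths in nt by the authors, as medians for both hippocampi, and a further deposited table holds log2 TE. Tail reads were aligned uniquely to mm10 with STAR. The submitters' processing notes name STAR 2.4.2, bedtools and mm10. The treatment of multiply matching RNA-seq and RPF reads is not given in the sources used here. Of 17126 accessions 16975 matched a symbol of the reference annotation (GRCm38).

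Fold changes between single libraries are ratios of CPM, counts scaled to the reads or tags on genes, with exact Clopper-Pearson intervals (95%) of the count ratio. A gene entered with at least 10 RPM or 50 tags in either library, TE needed 10 RPM in both, and tails needed 50 tags in both. The limits were 2-fold (1.5-fold among cultures of 1 age) and 10 nt. Visual cortex tag counts were fitted across all genes with edgeR 4.0.16 (TMM, quasi-likelihood, R 4.3.3) and tails with limma 3.58.1, light being the only term, and DESeq2 1.42.0 was an alternative. The calculations were tested on simulated data. The text names every Rab gene past a limit as far as room allows, the most abundant of each role group, fixed paralogue pairs and up to 8 partners by size of change. The Rab genes and all lists were chosen with earlier results of these data known. RefSeq protein and miR-1 sequences were not analysed here.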

Additional observations from a re-analysis of the deposited data

How the results depend on the processing

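No alternative brought a Rab gene past the threshold for light, in expression or in tail length. Over all genes the light expression count was 128, and 113 with the replicate number as a block, 126 with DESeq2, 192 without a filter and 100 to 150 without each mouse in turn. The light tail count was 10 genes, and 1 with the replicate block, 1 on the log2 scale, 3 after centring each mouse, and 1 to 21 without each mouse in turn. Same-numbered mice did not deviate together (correlations of −0.196 to 0.029 in expression and −0.113 to 0.041 in tails), so the numbers do not pair them.

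Counts of Rab genes past the limit moved most with the assay and the minimum. With RPFs in place of RNA-seq reads the count was 22 in place of 12 for adult against embryonic hippocampus, 7 in place of 2 for cortex against hippocampus, 1 in place of 7 for BDNF and 4 in place of 2 for KCl at 10 min. With tail tags in place of RNA-seq reads it was 5 for the hippocampi, 1 in place of 5 for cortex against culture, 0 for BDNF, 1 in place of 3 for glu/gly, 0 for KCl at 10 min, 5 in place of 3 for GFP, 1 for miR-1 and 0 for miR-155. With 30 RPM as the TE minimum it was 0 in place of 4 for the hippocampi, 2 in place of 7 for BDNF, and 0 for cortex against culture, DIV14 against DIV10, glu/gly, KCl at 10 min and GFP. With the deposited log2 TE it was 8 in place of 0 for cortex against hippocampus, 4 for BDNF, 2 for glu/gly and 6 for KCl at 10 min. With 20 tags as the tail minimum it was 3 for the hippocampi, 15 in place of 6 for DIV14 against DIV10, 6 for BDNF, 14 for glu/gly, 12 for KCl at 10 min, 7 for KCl at 30 min, 18 for GFP, 8 for miR-1 and 7 for miR-155, since more genes entered. The causes of the other shifts were not tested. For 30 RPM, the deposited log2 TE and 20 tags the share of all genes past the limit was not counted. Those counts of Rab genes therefore cannot be set against all genes.

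In all, 10 log2 differences changed sign with the assay. In RPFs Rab7 gave 0.57 for cortex against hippocampus, and after BDNF Rab5a gave 0.0312, Rab6b −0.0152 and Rab33b −0.13. In RPFs Rab10 gave −0.0689 for KCl at 30 min. In tags Rab10 gave −0.20 after BDNF and −0.0324 for KCl at 30 min, Rab6b −0.0658 after glu/gly, Rab18 0.0740 for KCl at 10 min and Rab28 0.0762 for GFP.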

Other observations

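A few Rab genes had counts that differed between assays of the same sample. Rab38, a Rab of lysosome-related organelles, had 174 RPFs in the embryonic hippocampus on 0 RNA-seq reads. Rab29 had 300 RPFs in the adult hippocampus on 34 RNA-seq reads and 0 in the embryonic hippocampus on 46. Rab8b, of which 46.1% of the ORF windows lie elsewhere in the genome, had 1 RNA-seq read in the GFP culture and 11 in the miR-155 culture, a ratio of 2.33 after scaling (exact counting interval 0.339 to 100.5), and 11 and 6 tags, 2.26-fold lower in the miR-155 culture (0.766 to 7.44). Its 3′ UTR holds an 8mer for miR-155.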
